A study of Mus musculus with 6 samples.

Results

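The enzymes that make serine, one-carbon units, asparagine and proline were followed through 6 mouse RNA libraries. The 10 genes, of 35856 genes in the libraries, were taken by name: Phgdh, Psat1, Psph, Shmt1, Shmt2, Mthfd1l, Mthfd2, Asns, Pycr1 and Aldh18a1. They were chosen with earlier results of these data known. For each gene the estimated counts of all its transcripts were summed, and all 10 passed the filter on low counts. Of the 10, 7 rose in the libraries labelled 4OHT, 1 fell (Pycr1) and 2 did not pass the test (Mthfd1l and Aldh18a1), relative to the libraries labelled EtOH; of all 15933 genes tested, 25.0% rose and 24.6% fell (edgeR adjusted p under 0.05).

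The series addresses the loss of Mdm2, the ubiquitin ligase that restrains p53, in cells without p53. Per the labels, all cells were Mdm2 fl/fl and p53-/-, so the EtOH libraries carry the floxed allele and lack p53 as well. Cells were infected with a retrovirus that carried either CreERT2, which is Cre made dependent on 4-hydroxytamoxifen (4-OHT), along with GFP, or GFP by itself; the labels do not tie a vector to a library. The libraries labelled 4OHT came from cells given 4-OHT at 1 mM (the concentration as the labels print it), for 48 h under the fibroblast and sarcoma labels and for 6 h under the lymphoma label. The libraries labelled EtOH came from cells given ethanol for the same times. Fibroblasts were grown from ear punches and the tumour cells were short-term cultures, per the labels. Each combination of label and arm is 1 library. No 4-OHT library has a label naming the GFP vector, so an effect of Mdm2 deletion and an effect of 4-OHT exposure cannot be told apart.

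Values are called by their labels because several go against them. Mdm2 stood at 30.5, 31.1 and 31.1 CPM in the 4OHT libraries labelled fibroblasts, lymphoma and sarcoma, against 28.4, 28.0 and 28.5 CPM in the matching EtOH libraries, so it was not lower in the 4OHT libraries (log2 fold change 0.13 ± 0.05 SE, edgeR adjusted p = 0.0539; 0.0349, as a rise, without the pair block). These counts cover the whole gene and do not isolate the floxed exons. CPM are counts relative to the library size, after TMM scaling. Of 10 T cell markers, 1 (Lck) reached 1 CPM in any library, Cd3d, Cd3e, Cd247 and Cd2 had 0 counts in all, and 7 genes of the T cell receptor complex had 0 counts in the pair labelled lymphoma. The T cell markers summed to 3.72 to 4.73 CPM in 4OHT libraries and 1.96 to 2.26 CPM in EtOH libraries. Of 8 mesenchymal markers, 7 reached 1 CPM, and their summed level was 10168.2 to 10424.7 CPM in the 4OHT libraries, against 17317.6 to 18096.7 CPM in the EtOH libraries. Both sums move with the arms, and their part in the changes of the 10 genes was not tested. In bulk RNA, fewer cells of a type and less RNA per cell cannot be told apart. Macrophage markers summed to 25.1 to 28.3 CPM in 4OHT libraries and 26.3 to 28.1 CPM in EtOH libraries (2 of 5 at 1 CPM or more), and no endothelial, epithelial or skeletal muscle marker reached 1 CPM. Total estimated counts were 26243064 to 37517726 per library, and ribosomal RNA took 2.2% to 2.4% of counts in the 4OHT libraries and 0.57% to 3.61% in the EtOH libraries. Across 9873 protein-coding genes, the SD of the log2 CPM difference was 0.51 to 0.523 between libraries of different arms and 0.0966 to 0.139 between libraries of the same arm, whatever their cell type labels.

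Cells make serine from the glycolytic intermediate 3-phosphoglycerate in a chain of 3 enzymes, PHGDH, PSAT1 and PSPH. Serine hydroxymethyltransferases then split serine into glycine and a one-carbon unit carried on folate, and the mitochondrial MTHFD enzymes oxidise that unit towards formate, which is used in the cytosol to build purines and thymidylate. Asparagine is made from aspartate by ASNS, and proline from glutamate by ALDH18A1 and then a PYCR reductase; in cultured mammalian cells many of these genes are known targets of ATF4, the transcription factor of the amino acid and endoplasmic reticulum stress responses.

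The serine pathway rose at each of its 3 steps. Phgdh (ENSMUSG00000053398.11, chromosome 3, 98313170 to 98339990, minus strand, GRCm38), the NAD-dependent dehydrogenase that starts the pathway, stood at 464.4, 456.2 and 460.0 CPM in the 4OHT libraries labelled fibroblasts, lymphoma and sarcoma, against 329.1, 337.0 and 353.7 CPM in the EtOH libraries. Psat1 (ENSMUSG00000024640.9, chromosome 19, 15904678 to 15947337, minus strand), the aminotransferase of the middle step, stood at 283.8, 283.8 and 273.0 CPM in 4OHT, against 209.8, 214.3 and 217.7 CPM in EtOH. Psph (ENSMUSG00000029446.14, chromosome 5, 129765558 to 129787449, minus strand), the phosphatase that releases free serine, stood at 41.3, 40.3 and 39.8 CPM in 4OHT, against 23.8, 22.3 and 22.7 CPM in EtOH. For all 3 genes the lowest 4OHT library lay above the highest EtOH library, and within each arm the 3 labels lay close together. The arms did not overlap in CPM, in either direction, for 55.5% of all 15933 genes tested, so the separation alone is common in these libraries.

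Psph had the largest change of the 10 genes. Its shared log2 fold change over the 3 labelled pairs was 0.82 ± 0.05 (SE, edgeR quasi-likelihood, adjusted p = 1.12e-07), a 1.76-fold difference. Phgdh rose by 0.44 ± 0.04 (adjusted p = 7.01e-06 in the same edgeR fit) and Psat1 by 0.39 ± 0.04 (adjusted p = 1.85e-05, edgeR), which are 1.35-fold and 1.31-fold. The within-pair ratios of Psph were 1.74, 1.81 and 1.75 in the pairs labelled fibroblasts, lymphoma and sarcoma. Those of Phgdh were 1.41, 1.35 and 1.3, and those of Psat1 were 1.35, 1.32 and 1.25. With 1 library per group, a ratio within a pair has no test; the 95% Clopper-Pearson interval of Psph, which covers counting error only, ran from 1.58 to 1.91 under the fibroblast label, 1.64 to 1.99 under the lymphoma label and 1.60 to 1.92 under the sarcoma label. Psph shares 452 exonic bases on the other strand with Cct6a, a chaperonin subunit gene, but none of these bases is coding in Psph and the deposited targets of Psph hold coding sequence.

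**Figure D1:**
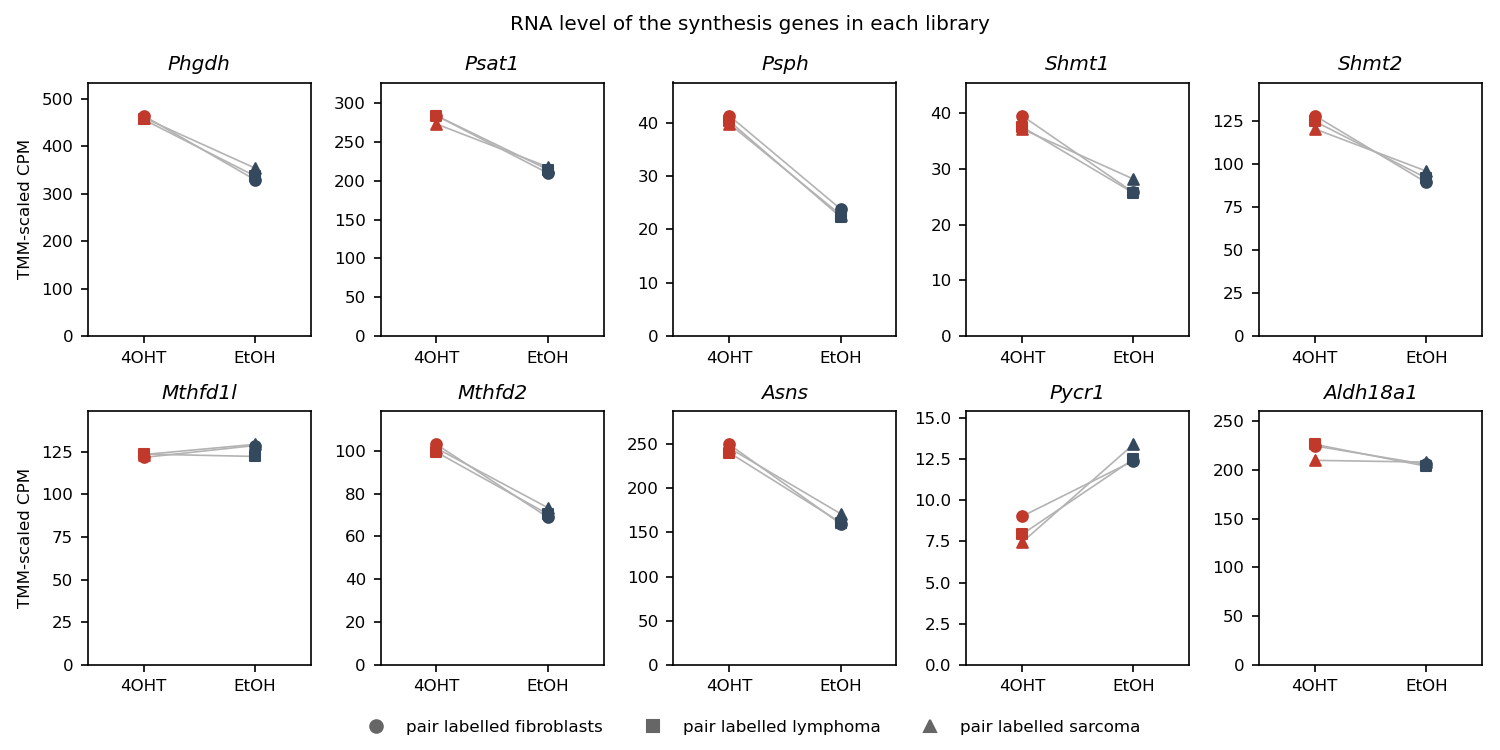
TMM-scaled CPM of each of the 10 genes, 1 panel a gene, with the 3 libraries labelled 4OHT on the left and the 3 labelled EtOH on the right of each panel; each point is 1 library, its marker gives the cell type label and a line joins the libraries of a labelled pair. The 4OHT points lie above the EtOH points in 8 panels, below them for Pycr1 (7.44 to 9.02 against 12.4 to 13.4 CPM), and overlap them for Mthfd1l.

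Both serine hydroxymethyltransferases rose. Shmt1 (ENSMUSG00000020534.14, chromosome 11, 60788104 to 60811718, minus strand), the cytosolic enzyme, stood at 39.6, 37.6 and 37.2 CPM in 4OHT, against 25.8, 25.7 and 28.2 CPM in EtOH. Shmt2 (ENSMUSG00000025403.5, chromosome 10, 127517123 to 127522444, minus strand), the mitochondrial enzyme, stood at 128.0, 124.7 and 120.3 CPM in 4OHT, against 89.2, 91.8 and 95.8 CPM in EtOH. Neither gene's arms overlapped. Shmt1 rose by 0.52 ± 0.06 (SE, edgeR adjusted p = 1.32e-05) and Shmt2 by 0.43 ± 0.05 (edgeR adjusted p = 1.54e-05) on the log2 scale. On the length-scaled TPM scale, Shmt2 stood at 3.04, 3.12 and 3.01 times the level of Shmt1 in 4OHT, against 3.25, 3.37 and 3.20 times in EtOH. The mitochondrial form was thus the more abundant transcript in every library, and its lead was smaller in each 4OHT library, by 0.10 on the log2 scale; the exact two-sided permutation test of 3 libraries against 3 gave p = 0.1, the smallest it can give. Shmt1 shares 184 exonic bases with Smcr8 and Shmt2 shares 32 with Ndufa4l2, in both cases on the other strand and outside the coding part of the Shmt gene.

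The mitochondrial folate enzymes next in the chain differed. Mthfd2 (ENSMUSG00000005667.8, chromosome 6, 83305691 to 83325908, minus strand), the bifunctional dehydrogenase and cyclohydrolase, stood at 103.0, 99.4 and 101.2 CPM in 4OHT, against 68.9, 70.4 and 73.4 CPM in EtOH. Mthfd1l (ENSMUSG00000040675.17, chromosome 10, 3973118 to 4167081, plus strand), the synthetase that releases formate, stood at 121.7, 123.7 and 123.4 CPM in 4OHT, against 128.7, 122.3 and 129.4 CPM in EtOH. Every 4OHT library was above every EtOH library for Mthfd2, whereas the arms overlapped for Mthfd1l. Mthfd2 rose by 0.51 ± 0.04 (SE, edgeR adjusted p = 1.61e-06), and Mthfd1l had a log2 fold change of -0.04 ± 0.04 (edgeR adjusted p = 0.414). The within-pair ratio of Mthfd1l was 0.946 (0.903 to 0.991) under the fibroblast label, 1.01 (0.965 to 1.06) under the lymphoma label and 0.953 (0.912 to 0.996) under the sarcoma label, with 95% counting intervals.

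Their paralogs did not pass the test over all 3 pairs. Mthfd1, the trifunctional cytosolic enzyme, averaged 89.3 ± 0.821 CPM in 4OHT and 89.6 ± 2.58 CPM in EtOH (SD, n = 3 libraries each; edgeR adjusted p = 0.937). Mthfd2l, a second mitochondrial dehydrogenase, averaged 11.8 ± 0.908 CPM in 4OHT and 13.2 ± 1.00 CPM in EtOH (SD, n = 3 each; log2 fold change -0.17 ± 0.07 SE, edgeR adjusted p = 0.0684). It passed as lower without the pair labelled fibroblasts (-0.26, edgeR adjusted p = 0.0183) and with no filter on low counts (-0.20, edgeR adjusted p = 0.0324). Per length, Mthfd2 stood at 2.26, 2.48 and 2.40 times Mthfd2l in 4OHT, against 1.35, 1.69 and 1.44 times in EtOH, so the balance between the pair lay further towards Mthfd2 in each 4OHT library (log2 difference 0.68, exact permutation p = 0.1, the smallest possible). The ratio of Mthfd1l to Mthfd1 overlapped between the arms, at 1.29, 1.32 and 1.33 in 4OHT and 1.39, 1.33 and 1.33 in EtOH (log2 difference -0.04, exact permutation p = 0.2). Aldh1l2, which oxidises mitochondrial formyl-folate, did not pass the test either, at 84.7 ± 1.73 CPM in 4OHT and 78.8 ± 3.09 CPM in EtOH (SD, n = 3 each; edgeR adjusted p = 0.0765). With protein-coding genes alone in the fit, it passed with a log2 fold change of 0.12 (edgeR adjusted p = 0.026).

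Asparagine synthetase rose. Asns (ENSMUSG00000029752.12, chromosome 6, 7675169 to 7693254, minus strand), which transfers the amide nitrogen of glutamine to aspartate, stood at 249.7, 240.4 and 245.6 CPM in 4OHT, against 159.7, 161.2 and 171.1 CPM in EtOH. The arms were separated by more than the spread within either of them. The shared log2 fold change was 0.58 ± 0.04 (SE, edgeR adjusted p = 7.68e-07), and the within-pair ratios were 1.56, 1.49 and 1.44 under the fibroblast, lymphoma and sarcoma labels.

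Pycr1 went the other way. Pycr1 (ENSMUSG00000025140.15, chromosome 11, 120635712 to 120643769, minus strand), the mitochondrial reductase of the last step to proline, stood at 9.02, 7.93 and 7.44 CPM in 4OHT, against 12.4, 12.5 and 13.4 CPM in EtOH. It was the least abundant of the 10 genes in every library, with 266, 211 and 206 estimated counts in 4OHT and 354, 370 and 504 in EtOH, and the arms did not overlap. Its shared log2 fold change was -0.65 ± 0.09 (SE, edgeR adjusted p = 7.25e-05). The within-pair ratio was 0.726 (95% counting interval 0.617 to 0.854) under the fibroblast label, 0.635 (0.534 to 0.754) under the lymphoma label and 0.556 (0.471 to 0.655) under the sarcoma label; the intervals of the fibroblast and sarcoma pairs overlap between 0.617 and 0.655.

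Upstream of it, Aldh18a1 (ENSMUSG00000025007.13, chromosome 19, 40550257 to 40588463, minus strand), the synthase that commits glutamate to proline and ornithine, stood at 224.4, 226.0 and 209.6 CPM in 4OHT, against 205.4, 203.6 and 207.8 CPM in EtOH. The arms did not overlap, but the sarcoma 4OHT library lay within 2 CPM of the sarcoma EtOH library, and the gene did not pass the test (log2 fold change 0.10 ± 0.04 SE, edgeR adjusted p = 0.0934). It passed without the pair labelled sarcoma (0.14, edgeR adjusted p = 0.0312) and with protein-coding genes alone in the fit (0.11, edgeR adjusted p = 0.0201). Pycrl, the cytosolic reductase, fell by 0.24 on the log2 scale (SE 0.06, edgeR adjusted p = 0.0048), at 29.4 ± 0.95 CPM in 4OHT and 34.6 ± 1.92 CPM in EtOH (SD, n = 3 each). Per length, Pycrl stood at 3.11, 4.21 and 4.13 times Pycr1 in 4OHT, against 2.89, 2.61 and 2.92 times in EtOH (log2 difference 0.43, exact permutation p = 0.1, the smallest possible). Pycr1 was therefore scarcer than Pycrl in all 6 libraries. In all, 5 paralog ratios were computed.

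**Figure D2:**
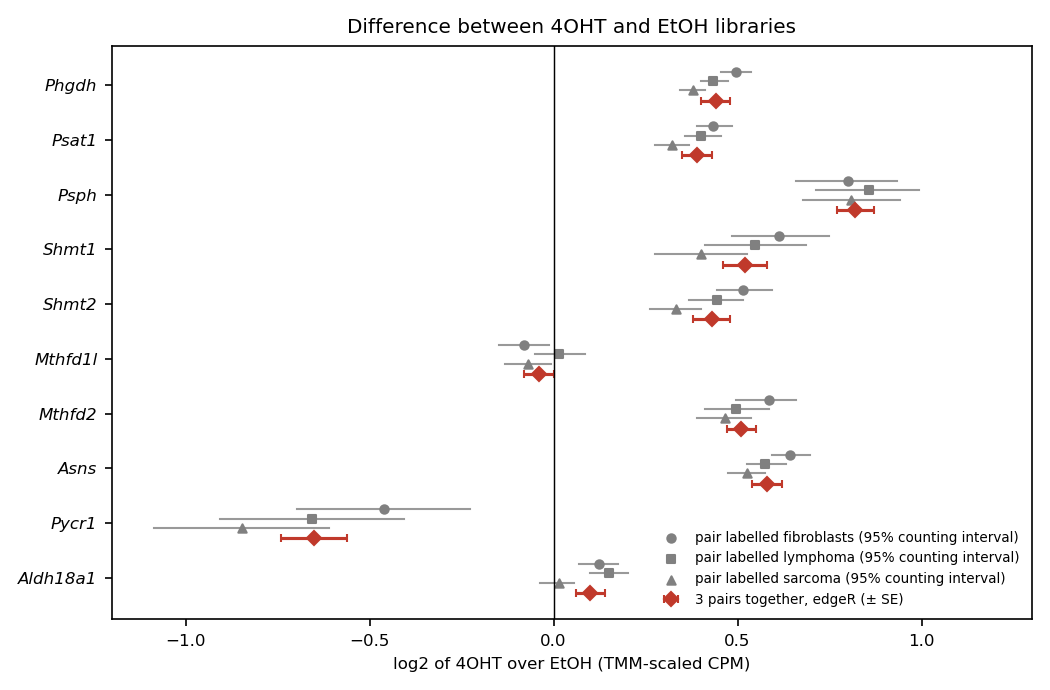
Log2 fold change of each of the 10 genes, 4OHT over EtOH; grey points are the ratios within the 3 labelled pairs with 95% counting intervals, and red diamonds the shared edgeR estimate with its SE. The shared estimate lies between 0.39 and 0.82 for the 7 genes that rose and at -0.65 for Pycr1, while those of Mthfd1l and Aldh18a1 are -0.04 and 0.10.

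Read as a group, the 10 genes had a median log2 fold change of 0.43, against 0.02 over all 15933 genes tested. Because the 10 were chosen with earlier results known, this contrast is a description. Leaving out any of the 3 labelled pairs kept the 7 rising and the 1 falling gene past the threshold. At a limit of 1.5-fold within a pair, 3 of the 10 (Psph, Shmt1 and Asns) were higher under the fibroblast label, where 6.02% of 10841 genes were higher, and none was lower, where 3.60% were. Under the lymphoma label Psph was past the limit upwards and Pycr1 downwards, where 6.04% and 3.85% of 10874 genes were. The same 2 genes were past it under the sarcoma label, where 6.55% and 4.38% of 10856 genes were. The changes of the rising genes, other than Psph, were thus mostly smaller than 1.5-fold.

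The arm accounted for most of the variation among libraries in the 8 genes that passed. Its share of the sum of squares of log2 CPM lay between 93.2% (Pycr1) and 99.4% (Psph), against 39.7% for Mthfd1l and 64.9% for Aldh18a1. The cell type label accounted for at most 1.44% in the 8 genes. These genes were picked by the arm test on the same libraries. That choice favours a large arm share, which is therefore no separate result. The label was a block in that test, so passing it does not by itself set the label share. The shares over all genes were not computed. Among the 8 genes, the range within the 4OHT arm was widest for Pycr1, at 0.262 on the log2 scale.

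Per length, Phgdh was the most abundant of the 10 transcripts, at 143.8, 155.1 and 140.7 TPM in 4OHT and 102.5, 102.8 and 110.0 TPM in EtOH. Psat1 followed, at 127.0, 140.5 and 122.3 TPM in 4OHT and 95.9, 96.6 and 98.6 TPM in EtOH. Psph averaged 77.9 ± 3.56 TPM in 4OHT and 40.8 ± 3.16 TPM in EtOH, and Asns 81.9 ± 3.19 TPM in 4OHT and 57.4 ± 2.13 TPM in EtOH (SD, n = 3 each). Psph lay below Asns in every library, though in 4OHT the mean levels of these 2 genes differed by about their spread. Aldh18a1 averaged 58.7 ± 5.51 TPM in 4OHT and 51.9 ± 1.45 TPM in EtOH, and Mthfd2 53.8 ± 2.41 TPM in 4OHT and 37.2 ± 1.27 TPM in EtOH. Aldh18a1 lay above Mthfd2 in every library, though their means were within their spread of each other in 4OHT only. In EtOH Aldh18a1 also lay above Psph. Shmt2 came next at 40.4 ± 2.78 TPM in 4OHT and 29.3 ± 0.938 TPM in EtOH, then Mthfd1l at 19.5 ± 1.28 TPM in 4OHT and 19.6 ± 0.703 TPM in EtOH, Shmt1 at 13.2 ± 0.654 TPM in 4OHT and 8.97 ± 0.46 TPM in EtOH, and Pycr1 at 5.21 ± 0.834 TPM in 4OHT and 8.05 ± 0.274 TPM in EtOH. Shmt1 and Pycr1 lay within about 1 TPM of each other in EtOH and further apart in 4OHT. Summed over the 10 genes, the level was 624.2, 663.3 and 593.8 TPM in 4OHT, against 451.7, 449.6 and 464.7 TPM in EtOH.

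**Figure D3:**
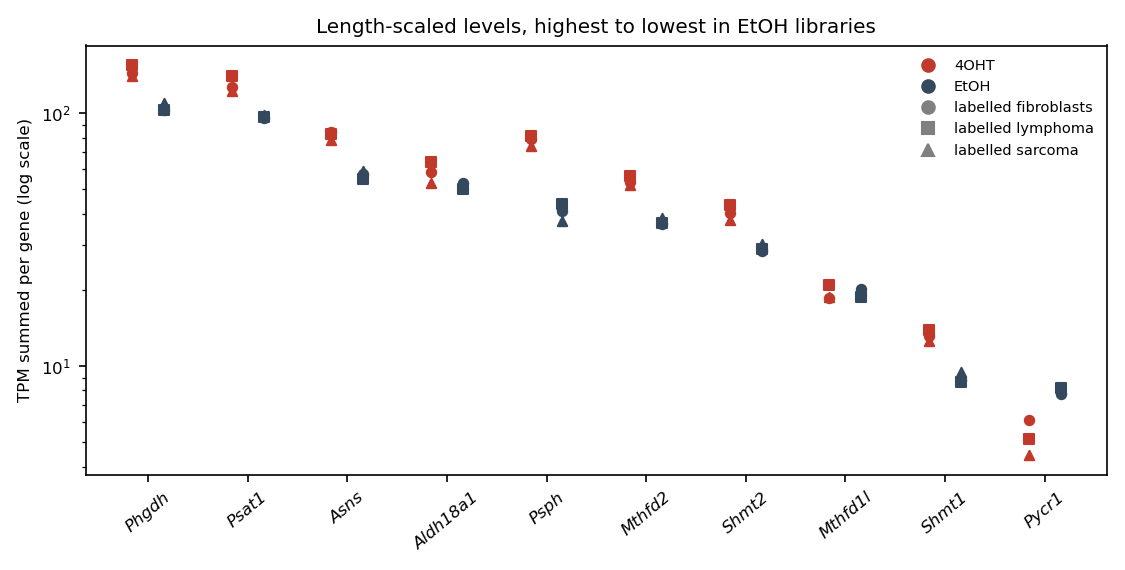
Length-scaled level (TPM as the authors deposited it, summed per gene) of the 10 genes; each point is 1 library, its marker gives the cell type label, 4OHT stands left of EtOH and the axis is on a log scale. Phgdh and Psat1 are the most abundant in both arms, and Pycr1 the least, at 5.21 ± 0.834 TPM in 4OHT and 8.05 ± 0.274 TPM in EtOH.

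The gene totals rested on a few transcript targets each. A single full-length target took at least 98.8% of the counts of Phgdh in every library, and Shmt2 has 1 target. A pair of Asns targets share one coding sequence, and each was given 47.8% to 49.0% of the counts of Asns, an even split of reads that cannot be assigned to either. The same holds for 3 Mthfd1l targets at 33.3% each, and for a pair of Pycr1 targets at 42.6% to 48.2% each. A shorter Pycr1 target took 14.7%, 3.63% and 4.80% in the 4OHT libraries labelled fibroblasts, lymphoma and sarcoma, against 6.49%, 12% and 6.27% in EtOH, so that its share did not follow the arm. A short Psph target held 12.3%, 11.3% and 11.9% in 4OHT and 9.81%, 13.2% and 9.21% in EtOH, also with overlap. Most counts of Pycr1 and Psph therefore lay on full-length coding targets in both arms.

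The promoters of Asns and Pycr1 are shown because both hold the core of the C/EBP-ATF response element, through which ATF4 is known to act, although the transcripts moved in opposite directions. RefSeq promoters (250 bases before to 50 after the start, GRCm38.p6) matched all 10 genes, 11 promoters in all. Capitals mark the motif TGATGNAA, searched on both strands, and in Asns also GTTACA, the second element of the nutrient-sensing unit known from the human ASNS promoter, a motif added after this sequence had been seen. Asns is shown at chr6:7693160-7693459 and Pycr1 at chr11:120643699-120643998, both on the minus strand and printed 5′ to 3′.
Asns: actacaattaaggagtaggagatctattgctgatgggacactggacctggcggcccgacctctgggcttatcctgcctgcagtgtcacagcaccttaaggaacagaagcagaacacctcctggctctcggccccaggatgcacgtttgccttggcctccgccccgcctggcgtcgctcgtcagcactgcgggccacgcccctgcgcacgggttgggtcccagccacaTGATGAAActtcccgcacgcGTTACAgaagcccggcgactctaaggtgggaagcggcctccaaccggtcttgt
Pycr1: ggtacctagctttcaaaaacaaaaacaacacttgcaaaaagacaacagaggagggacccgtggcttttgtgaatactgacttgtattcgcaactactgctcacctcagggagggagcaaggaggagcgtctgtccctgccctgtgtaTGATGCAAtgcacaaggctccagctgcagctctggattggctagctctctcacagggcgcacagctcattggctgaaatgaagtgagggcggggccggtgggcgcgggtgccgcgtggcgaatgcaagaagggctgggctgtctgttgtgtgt

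In Asns the TGATGNAA match starts 23 bases before the transcription start and reads TGATGAAA, with GTTACA close behind it at 3 bases before the start. In Pycr1 the match starts 103 bases before the start and reads TGATGCAA. TGATGNAA was in the promoters of 2 of the 10 genes, against 4.51% of all 27025 gene symbols. By promoter, it was in 2 of 11, against 3.97% of all 32851 RefSeq promoters. GTTACA was in 8.25% of all these promoters. The E-box CACGTG, a motif bound by MYC and related factors, was in the promoter of Aldh18a1 alone among the 10, starting 59 bases before the start. It was in 8.09% of all gene symbols and 7.15% of all promoters. The other 7 genes held neither TGATGNAA nor CACGTG in this window, Psph, with the largest change, among them.

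Around the 10 genes, the other enzymes of these pathways moved both ways. Of 56 listed enzymes and carriers that were tested, 16 rose and 16 fell, with a median log2 fold change of -0.07; these shares are near the 25.0% and 24.6% of all genes that rose and fell, and so are no result about the enzymes as a group. The counts by pathway stand against the same shares and rest on few genes each. In serine and glycine use, 3 of 10 rose and 3 fell (median -0.14). Cth, the cystathionine lyase that makes cysteine from serine-derived cystathionine, stood at 59.7, 57.6 and 59.2 CPM in 4OHT, against 24.8, 24.2 and 26.8 CPM in EtOH (log2 fold change 1.22 ± 0.05 SE, edgeR adjusted p = 2.13e-09). Gldc, the decarboxylase of the glycine cleavage system, rose by 1.99 ± 0.22 (edgeR adjusted p = 1.65e-05) from a low level, averaging 3.0 ± 0.129 CPM in 4OHT and 0.745 ± 0.29 CPM in EtOH (SD, n = 3 each). Amt, the aminomethyltransferase of the same system, fell by 0.44 (edgeR adjusted p = 0.0066), and Srr, serine racemase, fell by 0.37 (edgeR adjusted p = 0.00191); the Amt call was lost in DESeq2 (adjusted p = 0.123).

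In the folate cycle, 4 of 19 rose and 3 fell (median -0.02), all by less than 0.4 on the log2 scale. Gart, a purine enzyme that consumes formyl-folate, rose by 0.18 ± 0.04 (edgeR adjusted p = 0.00453). Mthfsl, a relative of methenyltetrahydrofolate synthetase by name, fell by 0.35 (edgeR adjusted p = 0.00412), with an adjusted p of 0.0749 in DESeq2. The calls of Mtrr, methionine synthase reductase (0.19, edgeR adjusted p = 0.0206), and Slc25a32, the mitochondrial folate carrier (-0.21, edgeR adjusted p = 0.049), were each lost in DESeq2, with adjusted p of 0.167 and 0.348. In purine synthesis, 5 of 8 rose and 1 fell (median 0.15). This list and the folate list share genes, Gart among them, that count in both. Ppat, the committing amidotransferase, stood at 41.4, 41.8 and 38.6 CPM in 4OHT, against 31.9, 30.0 and 31.6 CPM in EtOH (0.38 ± 0.05 SE, edgeR adjusted p = 9.59e-05), whereas Paics, which acts in the middle of the pathway, fell by 0.26 (edgeR adjusted p = 0.000325). Adsl, adenylosuccinate lyase, rose by 0.19 (edgeR adjusted p = 0.00525), a call lost without the pair labelled lymphoma (edgeR adjusted p = 0.0638).

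Among genes of aspartate, asparagine and glutamate, 3 of 12 rose and 5 fell (median -0.11). Got1, the cytosolic aspartate transaminase, stood at 68.5, 65.1 and 70.0 CPM in 4OHT, against 44.1, 43.1 and 47.3 CPM in EtOH (log2 fold change 0.60 ± 0.04 SE, edgeR adjusted p = 3.82e-07). Gpt2, the mitochondrial alanine transaminase, rose by 0.50 ± 0.05 (edgeR adjusted p = 4.15e-06). Both listed enzymes that degrade asparagine fell. Aspg, an asparaginase, stood at 11.2, 12.3 and 12.6 CPM in 4OHT, against 19.9, 19.1 and 23.1 CPM in EtOH (-0.78 ± 0.07 SE, edgeR adjusted p = 2.82e-06), and Asrgl1, a second asparaginase, fell by 0.41 (edgeR adjusted p = 0.00176). In proline and ornithine metabolism, 3 of 9 rose and 4 fell (median -0.11). Arg2, the mitochondrial arginase, stood at 7.46, 7.74 and 5.85 CPM in 4OHT, against 1.54, 1.65 and 1.70 CPM in EtOH (2.08 ± 0.13 SE, edgeR adjusted p = 1.88e-07). Odc1, the decarboxylase that turns ornithine into putrescine, rose by 0.64 ± 0.05 (edgeR adjusted p = 4.97e-07), while Oat, which links ornithine to the proline pathway, fell by 0.32 (edgeR adjusted p = 9.92e-05) and Aldh4a1, of proline breakdown, fell by 0.32 (edgeR adjusted p = 0.0106; 0.155 in DESeq2). In limma on log2(TPM + 1), the calls of Gart, Paics, Adsl, Asrgl1, Oat, Aldh4a1, Mtrr, Slc25a32 and Pycrl were lost, with adjusted p from 0.053 (Asrgl1) to 0.416 (Oat).

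**Figure D4:**
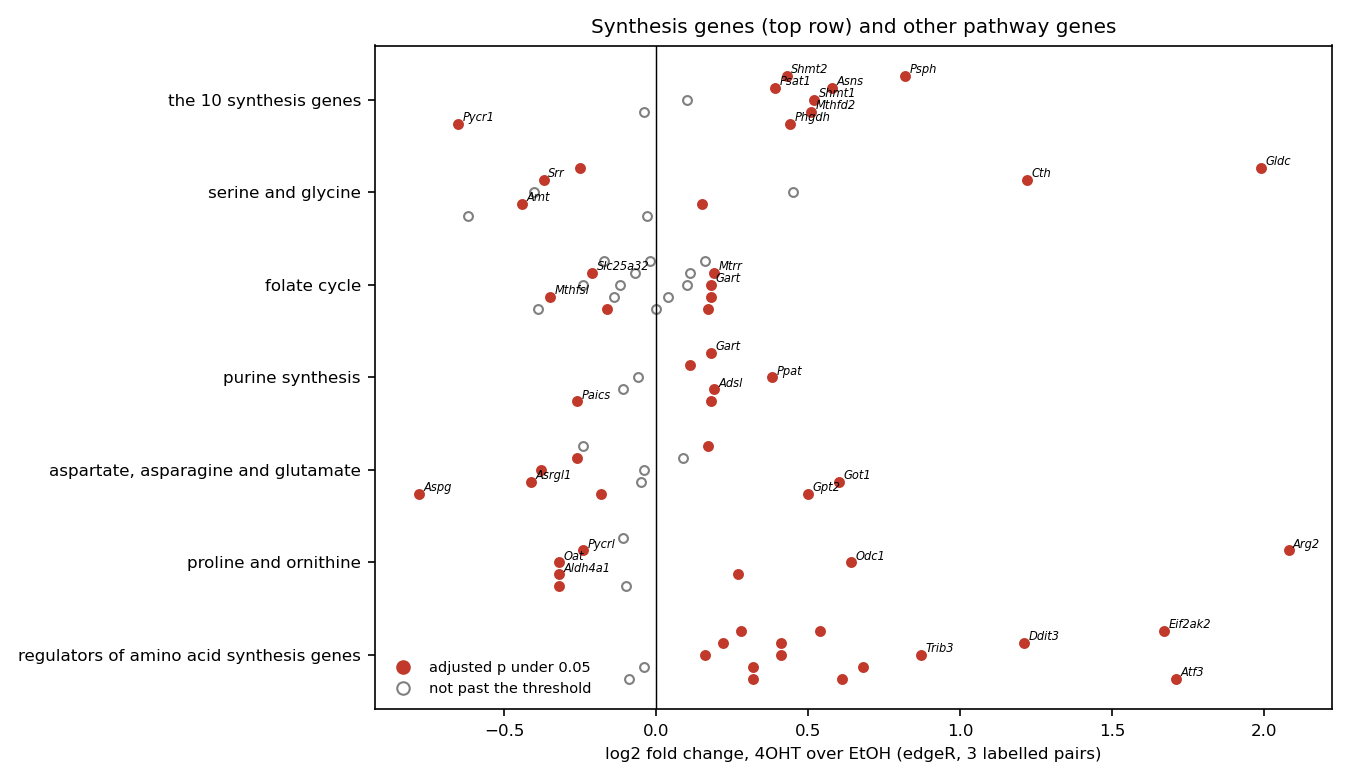
Log2 fold change (4OHT over EtOH, edgeR, 3 labelled pairs) of the 10 synthesis genes in the top row and of the listed genes of each neighbouring pathway in the rows under it; filled points have an adjusted p under 0.05 and open points do not. The neighbouring enzymes lie on both sides of 0 (16 rose and 16 fell), and 14 of 16 listed regulators lie above it.

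Of 16 listed regulators of these genes, 14 rose and 2 did not pass the test, with a median of 0.41, where 25.0% of all genes rose. The list was chosen with earlier results known, and 11 rose in limma on log2(TPM + 1). Atf4 stood at 742.2, 726.7 and 747.2 CPM in 4OHT, against 555.2, 529.7 and 589.0 CPM in EtOH (0.41 ± 0.04 SE, edgeR adjusted p = 1.62e-05), a size like that of Phgdh and Shmt2. Several listed regulators changed more than Atf4. They included Atf3, a stress-induced repressor and activator (1.71 ± 0.09 SE), Ddit3, the stress factor CHOP (1.21 ± 0.06 SE), and Trib3, a pseudokinase induced by ATF4 and CHOP (0.87 ± 0.06 SE). Of the kinases that act on the translation factor eIF2 and so raise ATF4 protein, Eif2ak2 (PKR) rose by 1.67 ± 0.04 (edgeR adjusted p = 4.98e-11). Eif2ak1 (HRI) rose by 0.22 ± 0.06 (edgeR adjusted p = 0.0106), a call lost in DESeq2 (adjusted p = 0.0967), without the pair labelled lymphoma (0.0903) and without the pair labelled sarcoma (0.061). By contrast, Eif2ak3 (PERK, -0.04, edgeR adjusted p = 0.502) and Eif2ak4 (GCN2, -0.09, edgeR adjusted p = 0.0892) did not pass. These are RNA levels, and the kinases and ATF4 are known to be controlled largely after transcription.

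Genes outside these pathways had the same pattern over the pairs. Among 10703 other genes with at least 5 CPM in every pair, those whose 3 within-pair log2 ratios lay nearest to Psph (0.78, 0.84 and 0.80) were Grn, the granulin precursor, at a Euclidean distance of 0.0243, then Nampt (0.031), the rate-limiting enzyme of NAD salvage, Ero1l (0.038), an oxidase of disulfide formation in the endoplasmic reticulum, Ppa1 (0.0409), a pyrophosphatase, and Mtus1 (0.0423). Nearest to the median of the 10 genes (0.51, 0.44 and 0.35) were Tmem199 (0.013), Wdr74 (0.0133), Samd4 (0.0231), Galnt7 (0.0256) and Dnajb1 (0.0274). The likeness is over 3 values per gene and is a description.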

How the data were processed

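The 6 libraries were prepared as stranded total RNA after ribosomal RNA depletion, per the labels' protocols. The authors quantified them with kallisto 0.43.0 on GRCm38, per the submitters' processing notes, and deposited estimated counts and TPM per transcript. Which transcripts were indexed, and with what strand setting, is not given in the sources used here. Of 76055 targets, 75049 were joined by identifier to GENCODE M21; the 1006 others (0.393% to 0.41% of counts) were left out. For 94.1% of 51165 protein-coding targets the length equals that of the coding sequence, so such targets take no reads from untranslated regions.

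Estimated counts were summed per gene and rounded. The main comparison was edgeR 4.0.16 (TMM, low counts removed by filterByExpr within arms, two-sided quasi-likelihood test, p-values adjusted by Benjamini-Hochberg over 15933 genes, threshold 0.05) on all 6 libraries, with the cell type label as block and 2 residual degrees of freedom. Nothing in the labels says how many separate cultures lie behind the libraries, so the p-values reflect only how these libraries vary, which may be technical. The labels pair the libraries; the correlation of each pair's deviations from its arm means was -0.0619, 0.227 and 0.204. Within a pair no test was made: CPM ratios carry 95% Clopper-Pearson intervals, and the 1.5-fold limit used log2(CPM + 0.5) among genes averaging 5 CPM or more. Paralog ratios of deposited TPM were tested by exact permutation. The SE of an edgeR log2 fold change was derived from the test. It is the absolute log2 fold change over the square root of the F statistic. Alternatives used DESeq2 1.42.0 and limma 3.58.1 (R 4.3.3), other filters, protein-coding targets and leaving out each pair. The fit was tested on simulated data. Members and gene lists were chosen with earlier results of these data known. Named were all 10 members, up to 4 called genes per list by size of change, member paralogs, Mdm2, Trp53 and the nearest genes. Trp53 had a log2 fold change of 0.08 ± 0.07 (SE, edgeR adjusted p = 0.414). Promoters and motifs were read with Python 3.11.15 from RefSeq sequences. A gene that the naming rule covers is not reported here.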

Additional observations from a re-analysis of the deposited data

Results flagged for a closer look

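In 3 of the genes named here, 1 labelled pair moved against the other pairs. These differences were not tested. Mthfd1l had a log2 ratio (4OHT over EtOH) of 0.02 in the pair labelled lymphoma, where the pairs labelled fibroblasts and sarcoma had -0.08 and -0.07. The counting interval of the lymphoma ratio, 0.965 to 1.06, includes 1. Its cytosolic paralog Mthfd1 had a log2 ratio of -0.06 in the pair labelled sarcoma, where the pairs labelled fibroblasts and lymphoma had 0.03 and 0.02. The counting intervals of the Mthfd1 ratio include 1 in all 3 pairs (0.965 to 1.08, 0.961 to 1.08 and 0.908 to 1.01 under the fibroblast, lymphoma and sarcoma labels). Trp53 had a log2 ratio of -0.14 in the pair labelled fibroblasts, where the pairs labelled lymphoma and sarcoma had 0.12 and 0.24. None of these genes passed the edgeR test over the 3 pairs.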

How the results depend on the processing

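The 7 genes that rose and Pycr1, which fell, kept their direction and stayed past the threshold under each of the 11 alternatives of the shared comparison: DESeq2 size factors, the DESeq2 Wald test, no filter on low counts, no label block, protein-coding genes or transcripts only, limma on log2(TPM + 1) or log2(TPM + 0.1), and leaving out each pair. Without a pair, Pycr1 ranged from -0.78 to -0.56 and Psph from 0.80 to 0.82. Aldh18a1 was called higher under 3 alternatives, which made 8 rising genes. No called result changed sign. Among values near 0 that were not called, the Aldh18a1 ratio in the pair labelled sarcoma was 1.01 with TMM and 0.994 with total-count CPM, and the Mthfd1 log2 fold change ran from -0.04 to 0.03. Dropping the pair block changed no call among the 10 genes. Of the other pathway enzymes, 7 rose and 5 fell in both limma fits, and 9 fell in the DESeq2 Wald test, against 16 and 16 in edgeR. Over all genes, higher calls numbered 2541 in the DESeq2 Wald test and 2352 and 2401 in limma, against 3981 in edgeR; lower calls numbered 2488, 1552 and 1589, against 3920. The causes were not tested. At a 2-fold limit within pairs, 0 of the 10 genes were past it in either direction under any label. On deposited TPM, 1 gene was at least 1.5-fold higher under the fibroblast label (3 on CPM) and 5 under the lymphoma label (1 on CPM). Of the single within-pair ratios, 80 moved by less than their counting interval and 10, all on TPM, by more. With 206 to 504 counts, Pycr1 has the fewest counts of the 10 genes. Without replicates inside a label, differences between the labelled cell types cannot be tested.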
